A study of Mus musculus with 16 samples.

Results

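Transcripts of the antigen presentation machinery were followed in mouse jejunal enteroids, epithelial cultures grown from intestinal crypts, with and without functional myosin Vb (MYO5B). The genes were 10, taken by symbol from a count table of 54532 genes, and each of them had reads in all 16 cultures. On GRCm38 chromosome 17 holds 7 of them, between H2-K1 (33996017 to 34000333) and H2-D1 (35262730 to 35267499), with B2m on chromosome 2, Ciita on 16 and Cd74 on 18. In the MHC class I pathway these were the heavy chains H2-D1 and H2-K1, the light chain B2m, the peptide transporter subunit Tap1 and the immunoproteasome subunit Psmb8. In the MHC class II pathway they were the chain genes H2-Aa, H2-Ab1 and H2-Eb1, the invariant chain Cd74 and the regulator Ciita.

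Class I molecules are carried by nearly all nucleated cells and show peptides from the cell's own proteins to CD8+ T cells. Proteasomes cut the peptides, the TAP transporter moves them into the endoplasmic reticulum, and a heavy chain folds with beta-2-microglobulin around them. Class II molecules, best known from dendritic cells, macrophages and B cells, show peptides from endosomes to CD4+ T cells, and are also made by epithelial cells of the small intestine. There the invariant chain CD74 guards the empty groove, and CIITA is the coactivator without which class II genes are barely transcribed. Interferon gamma induces both pathways.

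The 16 cultures formed 4 groups of 4, each grown from jejunal crypts of adult mice and kept in differentiation medium for 2 days. MYO5BΔIEC cultures (Vil-CreERT2;Myo5b-flox/flox) and MYO5B(G519R) cultures (Vil-CreERT2;Myo5b-flox/G519R) had received 1 µM 4-OH-tamoxifen for 24 h, which activates a Cre recombinase driven by the villin promoter in intestinal epithelium. In the latter, excision leaves only the allele with the G519R point mutation. MYO5BΔIEC cultures were then given either the PBS vehicle or 100 nM Compound-1, an agonist that prefers the lysophosphatidic acid receptor LPAR5. The control cultures are labelled only as untreated controls; the study's methods derive them from the same floxed Cre line with ethanol in place of 4-OH-tamoxifen, so that loss of MYO5B, Cre activity and the drug itself cannot be told apart in any comparison with control. The labels give no donor for a culture. A figure legend of the study gives 4 cultures from 4 mice per group and calls the controls healthy littermates. Whether these littermates are of the same floxed Cre line is not stated there. P-values measure the spread between these cultures.

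The libraries held 27804968 to 40101729 gene counts. Myo5b stood at 160 to 230 CPM (counts scaled to a common library total) in control, 101 to 170 in vehicle-treated MYO5BΔIEC, 87.2 to 149 in Compound-1-treated MYO5BΔIEC and 136 to 173 in MYO5B(G519R) cultures, a whole-gene count that does not isolate the deleted part. The 9 epithelial markers summed to between 6873 and 16970 CPM. The 10 markers of immune cells summed to between 1.348 and 3.36 CPM, Adgre1, a macrophage marker, had no read in any culture, and Ptprc, which all leukocytes express, had at most 6 reads. Others of these markers were not empty. Itgam had 37 to 84 reads, in all 16 cultures, and Csf1r had up to 43 reads and was found in 15 cultures. The 7 fibroblast markers summed to at most 0.956 CPM, and 4 of them were at 0 in each group. The immune sum was 1.348 to 2.46 CPM in control and 2.06 to 3.36 in the other groups, and its part in the results was not tested. The 5 stem cell markers summed to 2247 to 6289 CPM in control and to 511 to 2500 in the other groups, and the 7 enterocyte markers to 2664 to 13740 and to 4643 to 10550. Their part was not tested either. Control cultures 2, 3 and 4 stood apart from all others in that long genes read low in them. Their Spearman correlations of level with gene length were -0.329 to -0.311, against -0.04 to 0.192 elsewhere, control culture 1 included. The share of reads from mitochondrial genes was 6.41% to 10.4% in control and 3.79% to 6.63% in the other groups.

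Per kilobase of gene length, class I transcripts far outweighed class II transcripts. In control cultures B2m had the highest mean level, 639 ± 141 FPKM (fragments scaled to gene length and library size; SD, n = 4), followed by H2-K1 at 231 ± 19.8 and H2-D1 at 81.2 ± 5.93. The ranges of these 3 genes did not overlap in control. Cd74 led class II at 30.9 ± 20.2 FPKM, and Ciita, a transcription coactivator, was lowest of the 10 at 0.247 ± 0.0857. From Cd74 down through H2-Ab1, H2-Eb1, H2-Aa, Psmb8 and Tap1 each gene's range met that of its neighbour in the order. The first 6 places were held by the same genes in the same order in all 4 groups, and below them Tap1 stood in place 9 in control and in place 7 in the other groups.

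The 2 heavy chains, the light chain and 2 of the class II chains hold a related pair of short motifs close to their start of transcription. TGACG or TGATG, letters known from the X box of MHC promoters, is followed on the same strand by ATTGG, the inverted CCAAT box that NF-Y reads, with starts 24 to 27 bases apart. The stretches are shown, with both motifs in capitals, because this is a piece of sequence that genes of both classes hold in common. They are from RefSeq on GRCm38.p6, 5′ to 3′ on the gene's strand.
H2-D1: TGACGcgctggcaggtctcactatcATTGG
H2-K1: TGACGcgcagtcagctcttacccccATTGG
B2m: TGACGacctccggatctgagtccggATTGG
H2-Aa: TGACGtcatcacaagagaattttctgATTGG
H2-Eb1: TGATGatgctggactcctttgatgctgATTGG

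The stretch of H2-D1 lies at chr17:35262993-35263022 on the plus strand, 101 bases before the RefSeq start and inside the longer gene that the count table uses. That of H2-K1 lies at chr17:34000359-34000388 on the minus strand, that of B2m at chr2:122147609-122147638 on the plus strand, that of H2-Aa at chr17:34287867-34287897 on the minus strand and that of H2-Eb1 at chr17:34305781-34305812 on the plus strand. The motifs and their spacing were chosen after the members' promoters had been read. The pair was found, on the gene's strand and within 250 bases of the start, in 0.304% of 32851 RefSeq promoters (0.493% on either strand), while TGACG alone was found in 17.8%, TGATG in 34.5% and ATTGG in 33.8% on either strand. H2-Eb1 holds a second, overlapping TGATG at a spacing of 24. The windows of Tap1 and Psmb8 held no such pair. No window was used here for H2-Ab1, Cd74 and Ciita.

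Of the class I heavy chains, H2-D1 rose in every group that had lost MYO5B function. H2-K1 was above control on average in each group but was not called by edgeR in any of them, and the difference between both genes was not tested. In cultures 1 to 4, H2-D1 stood at 234, 204, 214 and 209 CPM in control. It stood at 429, 396, 315 and 320 CPM in vehicle-treated MYO5BΔIEC, at 355, 350, 387 and 324 in MYO5B(G519R) and at 365, 368, 564 and 429 with Compound-1. All 12 cultures of the other groups lay above all 4 controls. On the log2 scale, and with standard errors after ± here and for later fold changes, H2-D1 was up by 0.77 ± 0.15 (edgeR quasi-likelihood test, adjusted p = 0.00512) in vehicle-treated MYO5BΔIEC and 0.72 ± 0.11 (adjusted p = 0.00303) in MYO5B(G519R). With Compound-1 it was 1.01 ± 0.17 (adjusted p = 0.00482).

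H2-K1, on the other side of the class II genes on chromosome 17, stood at 529, 645, 651 and 650 CPM in control. It reached 897, 748, 763 and 619 CPM in vehicle-treated MYO5BΔIEC, 709, 749, 774 and 713 in MYO5B(G519R) and 747, 667, 814 and 722 with Compound-1. The MYO5B(G519R) and Compound-1 cultures all lay above the controls, and vehicle-treated culture 4 lay among them. On the log2 scale the differences from control were 0.30 (95% interval -0.06 to 0.66, adjusted p = 0.201), 0.25 (-0.02 to 0.53, adjusted p = 0.159) and 0.25 (-0.08 to 0.59, adjusted p = 0.231). By DESeq2 H2-K1 passed in MYO5B(G519R), at a log2 fold change of 0.28 (adjusted p = 0.0282). H2-D1 made up 24.2% to 30.9% of the FPKM of both heavy chains in control and 29.5% to 41.2% in the other groups. Of the distinct stretches of 100 bases in their annotated transcripts, 3.59% (H2-D1) and 0.957% (H2-K1) also occur in other class I genes. A small part of their reads may thus not be told apart from reads of those genes. How this affected their counts was not tested.

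**Figure D1:**
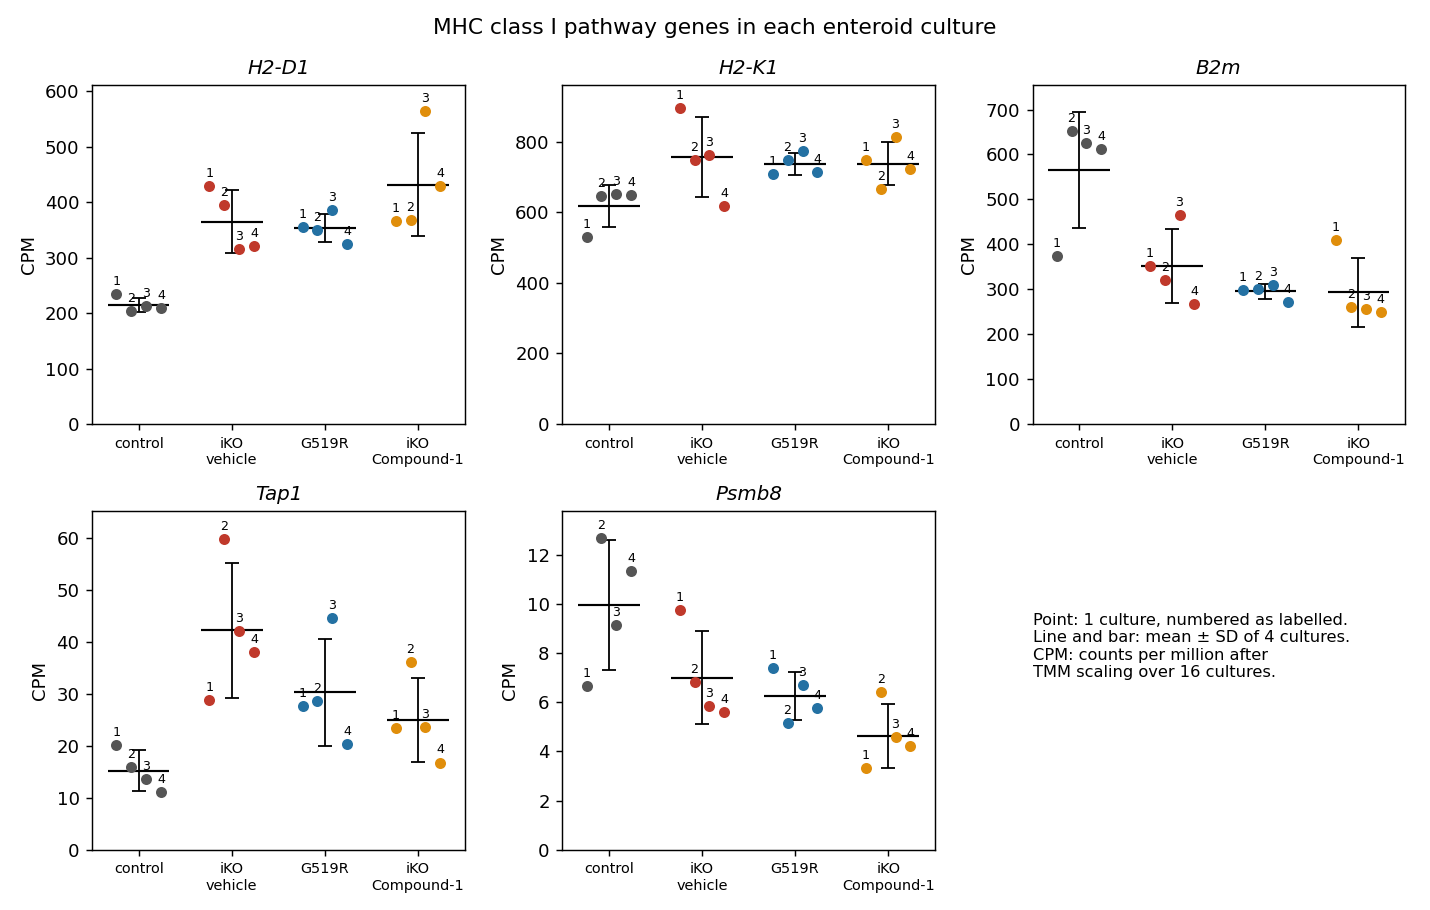
Levels of the 5 class I pathway genes in CPM (y axis from 0), with a point for each culture, numbered as labelled, and mean ± SD (n = 4) for control, vehicle-treated MYO5BΔIEC (iKO vehicle), MYO5B(G519R) and Compound-1-treated MYO5BΔIEC. All H2-D1 points outside control lie at 315 CPM or more and all control points at or below 234, whereas B2m in 3 of 4 controls lies at 612 CPM or more and in control culture 1 at 374.

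The light chain went the other way. B2m stood at 374, 653, 624 and 612 CPM in control cultures 1 to 4. It stood at 353, 321, 465 and 268 CPM in vehicle-treated MYO5BΔIEC, at 298, 301, 310 and 272 in MYO5B(G519R) and at 409, 260, 256 and 249 with Compound-1. Control culture 1 was low beside the other controls and overlapped the vehicle-treated and the Compound-1 cultures, while all MYO5B(G519R) cultures lay below all controls. B2m differed from control by -0.68 ± 0.22 on the log2 scale (edgeR, adjusted p = 0.044) in vehicle-treated MYO5BΔIEC, -0.94 ± 0.18 (adjusted p = 0.00552) in MYO5B(G519R) and -0.95 ± 0.23 (adjusted p = 0.014) with Compound-1, where it missed the threshold without Compound-1 culture 4 (adjusted p = 0.0504).

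B2m has the shortest of the 10 gene models, at 860 bases, and the controls other than culture 1 favoured short genes. With the trend of level on gene length taken off each culture, the log2 fold change of B2m was -0.28 (adjusted p = 0.257) in vehicle-treated MYO5BΔIEC, -0.55 (adjusted p = 0.00785) in MYO5B(G519R) and -0.51 (adjusted p = 0.064) with Compound-1. The call in vehicle-treated MYO5BΔIEC was also lost without any of vehicle-treated cultures 1, 2 and 4 or control cultures 2, 3 and 4, with adjusted p of 0.093 to 0.116. H2-D1 kept its call in all 3 comparisons with the length trend removed, at 0.82, 0.77 and 1.08. The gene model of Patl2 spans B2m on the opposite strand, and Patl2 had at most 2 reads in a culture. As the strand setting of the counting is not given, this low count does not show whether reads of B2m went uncounted.

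**Figure D2:**
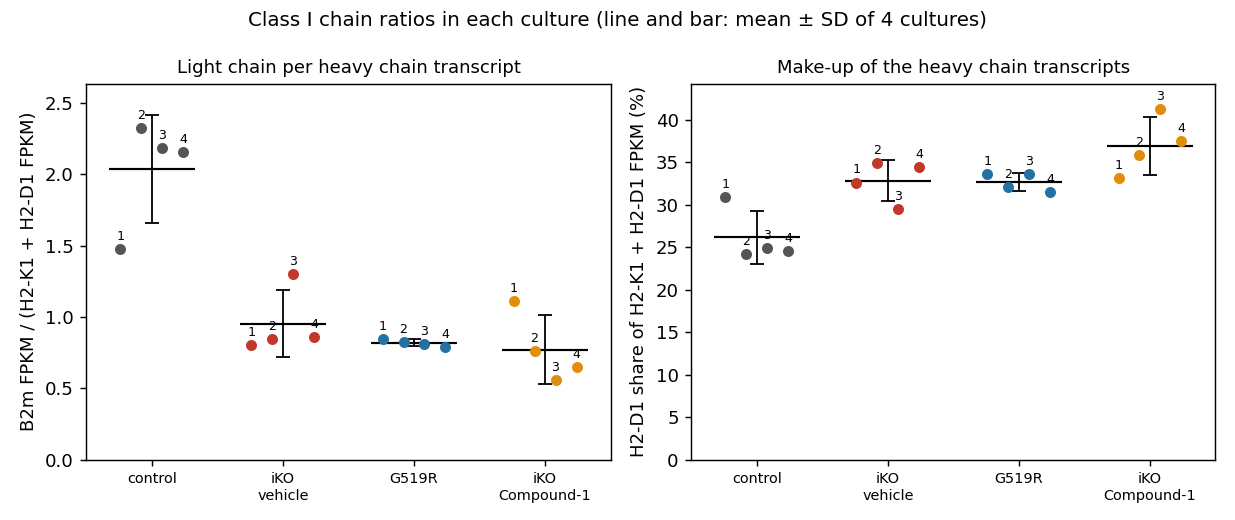
Left: B2m FPKM divided by the summed FPKM of H2-K1 and H2-D1, by group (y axis from 0). Right: the share of H2-D1 in that sum, in percent. Points are cultures, lines and bars mean ± SD (n = 4). The ratio was 1.48 to 2.33 in control and 0.561 to 1.304 in the other 12 cultures, so control does not meet the other groups. Control culture 1 is the lowest control on the left and the highest on the right, and vehicle-treated culture 3, at 1.304, is nearest to it on the left. The trend of level on gene length, which set control culture 1 apart from the other controls, was not taken off these values.

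Tap1, the subunit that with Tap2 forms the peptide transporter, rose in both models. It stood at 20.3, 15.96, 13.7 and 11.1 CPM in control and at 28.9, 59.8, 42.2 and 38.1 in vehicle-treated MYO5BΔIEC. MYO5B(G519R) cultures held 27.7, 28.6, 44.7 and 20.3 CPM and Compound-1-treated cultures 23.5, 36.2, 23.6 and 16.8. The first 2 groups lay wholly above the controls, the lowest MYO5B(G519R) culture by a narrow margin, and Compound-1 culture 4 lay among the controls. The log2 fold change was 1.48 ± 0.25 (edgeR, adjusted p = 0.00276) in vehicle-treated MYO5BΔIEC and 0.99 ± 0.26 (adjusted p = 0.0187) in MYO5B(G519R), where it missed the threshold without control culture 3 (adjusted p = 0.0579) or 4 (adjusted p = 0.0548). With Compound-1 it was 0.71 (95% interval 0.15 to 1.28, adjusted p = 0.0586), and it passed by DESeq2 (adjusted p = 0.03).

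Tap1 starts 226 bases from Psmb9, an immunoproteasome subunit transcribed in the opposite direction from the same stretch of chromosome 17. Psmb9 stood at 13.7 to 18.8 CPM in control, 11.7 to 15.0 in vehicle-treated MYO5BΔIEC, 6.88 to 14.0 in MYO5B(G519R) and 4.39 to 11.6 with Compound-1. Its log2 fold change was -0.19 (edgeR adjusted p = 0.436) in vehicle-treated MYO5BΔIEC and -0.33 (adjusted p = 0.323) in MYO5B(G519R), and it fell by 0.93 (adjusted p = 0.034) with Compound-1. The gene models of this pair overlap by 212 bases on opposite strands, and the strand setting of the counting is not given in the sources used here.

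Psmb8, the immunoproteasome subunit that takes the place of Psmb5, showed no rise in any group. It stood at 6.68, 12.7, 9.13 and 11.3 CPM in control, at 9.74, 6.81, 5.84 and 5.62 in vehicle-treated MYO5BΔIEC, at 7.38, 5.15, 6.69 and 5.76 in MYO5B(G519R) and at 3.32, 6.42, 4.59 and 4.22 with Compound-1. Compound-1-treated cultures all lay below the controls, and the other groups overlapped them. Against control the log2 difference was -1.10 ± 0.27 (edgeR, adjusted p = 0.0143) with Compound-1, -0.50 (95% interval -1.06 to 0.06, adjusted p = 0.169) in vehicle-treated MYO5BΔIEC and -0.67 ± 0.22 (adjusted p = 0.0473) in MYO5B(G519R). The call in MYO5B(G519R) held in 5 of 18 alternatives and is at the edge of the threshold.

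Across class I, edgeR called 2 of the 5 genes higher and 1 lower in vehicle-treated MYO5BΔIEC, where 13.5% of 17951 genes tested were called higher and 13.8% lower. In MYO5B(G519R) it called 2 higher and 2 lower, against 13.1% and 13.7% of 17829 genes. With Compound-1 against control it called 1 higher and 2 lower, against 15.7% and 13.7% of 17937 genes. The median log2 fold change of the 5 genes was 0.30, 0.25 and 0.25, beside -0.01, -0.05 and -0.05 over all genes. These 3 comparisons share the control cultures.

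No class II gene passed by edgeR in either model, although H2-Eb1 passed in vehicle-treated MYO5BΔIEC under other settings. In MYO5BΔIEC all 5 had log2 fold changes above 0 and in MYO5B(G519R) all 5 had log2 fold changes below 0, with overlapping groups throughout and wide intervals. The standard error of the log2 fold change in vehicle-treated MYO5BΔIEC against control was 0.29 to 0.47 for class II and 0.15 to 0.25 for class I. The largest of these changes was that of H2-Eb1, whose product is the beta chain of the I-E molecule.

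H2-Eb1 stood at 13.0, 18.2, 8.49 and 7.30 CPM in control, 12.9, 38.7, 41.8 and 13.6 in vehicle-treated MYO5BΔIEC and 9.89, 6.39, 22.8 and 3.17 in MYO5B(G519R). Vehicle-treated cultures 2 and 3 stood far above the other cultures, and cultures 1 and 4 lay within the range of control. The log2 fold change was 1.19 (95% interval 0.25 to 2.14; edgeR adjusted p = 0.0611) in vehicle-treated MYO5BΔIEC and -0.15 (-1.32 to 1.02, adjusted p = 0.866) in MYO5B(G519R). By DESeq2 the first passed (1.21, adjusted p = 0.0165), and so it did with the length trend removed (1.44, adjusted p = 0.0346) and without a filter on low counts (adjusted p = 0.0264). The matching alpha chain gene, annotated as the pseudogene H2-Ea-ps, had a single read, in control culture 3, and none in the other 15 cultures.

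H2-Aa and H2-Ab1 encode the alpha and the beta chain of the I-A molecule. H2-Ab1 stood at 45.4, 38.6, 32.9 and 23.8 CPM in control, 39.2, 53.7, 60.4 and 22.97 in vehicle-treated MYO5BΔIEC and 45.1, 24.0, 34.7 and 9.05 in MYO5B(G519R). H2-Aa stood at 9.88, 15.9, 6.47 and 4.74 CPM in control, 9.23, 17.7, 20.4 and 4.47 in vehicle-treated MYO5BΔIEC and 5.08, 3.11, 8.30 and 1.36 in MYO5B(G519R). For both genes culture 4 was lowest and culture 3 or 1 highest among MYO5B(G519R) cultures, and the groups overlapped. Log2 fold changes in vehicle-treated MYO5BΔIEC were 0.33 (95% interval -0.30 to 0.97; edgeR adjusted p = 0.429) for H2-Ab1 and 0.49 (-0.55 to 1.54, adjusted p = 0.475) for H2-Aa. In MYO5B(G519R) they were -0.32 (-1.21 to 0.57, adjusted p = 0.596) and -1.05 (-2.21 to 0.11, adjusted p = 0.164).

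Cd74, the invariant chain, stood at 85.6, 41.7, 26.7 and 24.1 CPM in control, 57.4, 96.4, 147 and 44.7 in vehicle-treated MYO5BΔIEC and 38.8, 18.1, 59.5 and 12.7 in MYO5B(G519R). Control culture 1 was the highest control and lay above vehicle-treated cultures 1 and 4. In vehicle-treated MYO5BΔIEC its log2 fold change was 0.96 (95% interval -0.02 to 1.95; edgeR adjusted p = 0.132), and without control culture 1 it was 1.49 and passed (adjusted p = 0.008). Ciita stood at 2.54, 3.56, 1.73 and 1.85 CPM in control, 3.12, 4.56, 5.42 and 1.5015 in vehicle-treated MYO5BΔIEC and 2.54, 1.18, 3.05 and 0.453 in MYO5B(G519R). Its log2 fold change was 0.60 (-0.27 to 1.46, adjusted p = 0.29) in the former and -0.42 (-1.55 to 0.71, adjusted p = 0.582) in the latter.

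**Figure D3:**
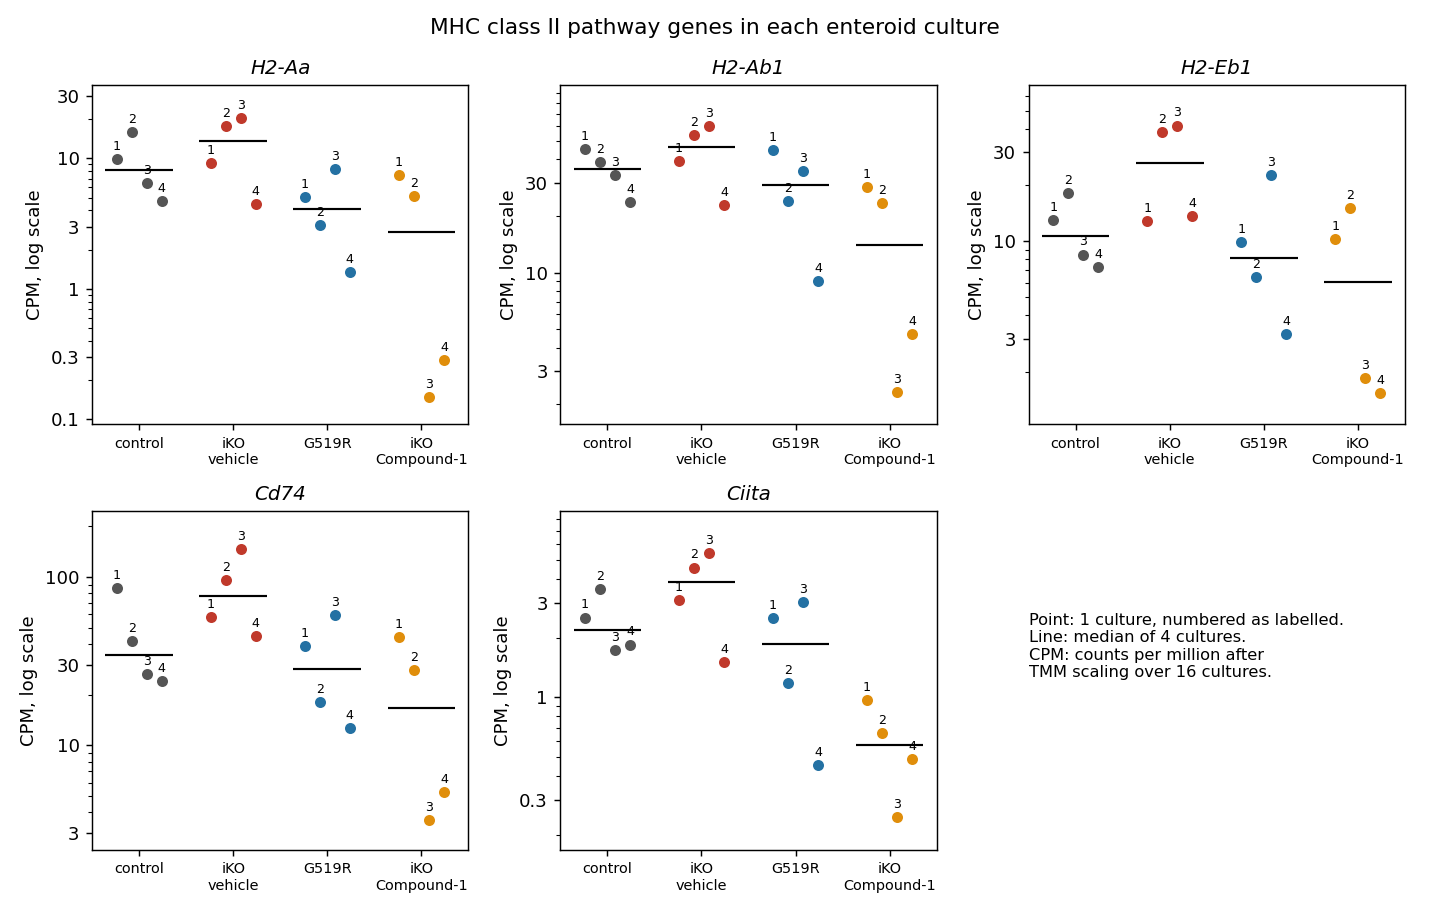
Levels of the 5 class II pathway genes in CPM on a log axis, with a point for each culture, numbered as labelled, and a line at the median of 4 cultures. MYO5B(G519R) culture 4 is the lowest of its group for all 5 genes, and Compound-1 cultures 3 and 4 lie below every other culture for H2-Aa, H2-Ab1, H2-Eb1 and Cd74.

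Compound-1 was compared with vehicle within MYO5BΔIEC to ask whether the agonist changed the machinery. Its cultures split. For H2-Aa cultures 1 and 2 held 7.44 and 5.14 CPM and cultures 3 and 4 held 0.147 and 0.285, which are 6 and 10 reads. Cd74 stood at 44.0, 28.1, 3.61 and 5.25 CPM, H2-Ab1 at 28.7, 23.4, 2.31 and 4.71, and H2-Eb1 at 10.3, 15.2, 1.84 and 1.54. For these 4 genes cultures 3 and 4 were the lowest of all 16. Ciita stood at 0.972, 0.658, 0.246 and 0.485 CPM (29, 21, 10 and 17 reads), so all 4 cultures lay below all vehicle-treated ones, as they did for Cd74.

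Compound-1 against vehicle gave a log2 fold change of -2.67 ± 0.49 (edgeR, adjusted p = 0.532) for Ciita and -2.12 ± 0.70 (adjusted p = 0.56) for Cd74. It was -2.04 for H2-Aa (95% interval -4.07 to 0.00), -1.92 for H2-Eb1 (-3.45 to -0.40) and -1.61 for H2-Ab1 (-3.03 to -0.19), with adjusted p of 0.566 to 0.665. EdgeR called none of the 10 genes, where the share called over all 18037 genes was 0% higher and 0% lower. At an unadjusted p under 0.05 there were 6 of the 10 and 1355 of all genes. DESeq2 called 91 genes, Ciita among them (-2.68, adjusted p = 0.000185), and limma on log2(FPKM + 1) called 0. Without a filter on low counts edgeR called Ciita as well (adjusted p = 0.0281).

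The class II median was -2.04 against 0.00 over all genes. With cultures 3 and 4 left out, a choice made after their values were seen, Ciita was at -2.19 and Cd74 at -1.29, and none of the 10 was called. In those cultures Lct, the lactase of mature enterocytes, also had few reads, 100 and 16, against 474 to 3816 in 13 of the other cultures and 456 in MYO5B(G519R) culture 4; it was picked after its values were seen. The sum of the 7 enterocyte markers, of which Lct is 1, was 4808 to 6573 CPM over the Compound-1 cultures. It was 5265 to 10550 CPM with vehicle and 2664 to 13740 in control. The sum of the 9 epithelial markers was 10800 to 16970 CPM with Compound-1 and 10210 to 10950 with vehicle. The part of cell make-up in the class II levels was not tested. H2-DMb1, which helps to load class II molecules, had 104, 96, 14 and 12 reads in Compound-1 cultures 1 to 4 and 145, 241, 269 and 75 with vehicle.

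The class I differences between Compound-1 and vehicle lay nearer to 0. H2-D1 was at 0.21 (95% interval -0.18 to 0.60), H2-K1 at -0.07 (-0.40 to 0.26) and B2m at -0.29 (-0.76 to 0.17). Tap1 was at -0.79 (-1.37 to -0.21; edgeR, adjusted p = 0.56) and Psmb8 at -0.62 (-1.21 to -0.03; adjusted p = 0.65). For both genes the groups overlapped.

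Against control, Compound-1-treated MYO5BΔIEC cultures had 1 class II call, Ciita, which encodes the class II coactivator, at -2.04 ± 0.44 (edgeR, adjusted p = 0.00892). All 4 cultures lay below all controls. The gene model of Ciita overlaps that of Dexi by 25888 bases on the opposite strand. Dexi had 214 to 485 reads in a culture and Ciita 10 to 153. The strand setting of the counting is not given, and the part of this overlap in the Ciita levels was not tested in any comparison. With the replicate number as a block, 3 more class II genes passed, Cd74 (-1.63, adjusted p = 0.0237), H2-Ab1 (-1.82, adjusted p = 0.0402) and H2-Aa (-2.58, adjusted p = 0.0468). Same-numbered control and Compound-1 cultures correlated, after group means were taken off, at only -0.245 to 0.129. The numbers were therefore not taken as pairs, and these 3 calls stand as an alternative only. Without the block, the other class II genes were at -0.71 (H2-Eb1) to -1.52 (H2-Aa), with adjusted p of 0.163 to 0.447 and overlapping groups, and the class II median was -1.26 beside -0.05 over all genes. With cultures 3 and 4 left out, Ciita was at -1.55 (adjusted p = 0.105), H2-D1 at 0.79 (adjusted p = 0.0504), Psmb8 at -1.004 (adjusted p = 0.159) and B2m at -0.74 (adjusted p = 0.181), so that none of the 10 passed with 2 treated cultures.

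**Figure D4:**
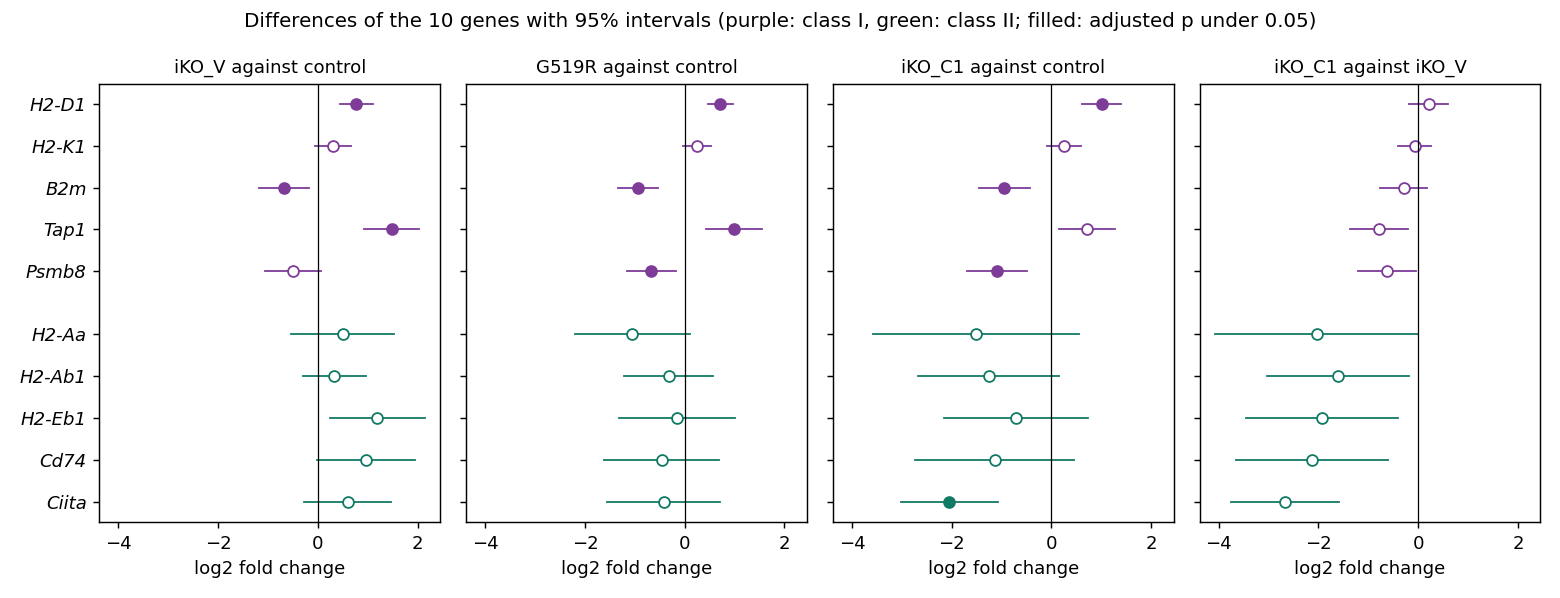
Log2 fold changes (x axis) of the 10 genes with 95% intervals from edgeR, class I in purple and class II in green, in 4 comparisons of 4 cultures with 4; filled points have an adjusted p under 0.05. Class I intervals are narrow and fall on both sides of 0, and the class II intervals are wide, with Ciita against control in Compound-1 cultures, at -2.04, as the filled class II point.

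The models themselves were compared next. All 10 log2 differences of MYO5B(G519R) from vehicle-treated MYO5BΔIEC were below 0, nearer to it in class I than in class II. Their median was -0.56, beside -0.01 over all genes. The share of all genes below 0 is not given here, and the common direction is not read as particular to these 10 genes. The log2 differences were -0.05 (95% interval -0.34 to 0.25) for H2-D1, -0.04 (-0.33 to 0.25) for H2-K1 and -0.48 (-1.05 to 0.09) for Tap1. Those of class II had a median of -1.34, with Cd74 at -1.41 (-2.46 to -0.37), H2-Aa at -1.54 (-2.72 to -0.35) and H2-Eb1 at -1.34 (-2.58 to -0.10), each with an edgeR adjusted p of 0.838. None of the 10 was called by edgeR, DESeq2 or limma, and 3 were under 0.05 unadjusted. Over all 17943 genes edgeR called 0% higher and 0.00557% lower (1 gene), with 772 genes under an unadjusted p of 0.05, and DESeq2 called 4. For all 10 genes the groups overlapped.

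Between cultures of a group the class II genes varied together. As a description, after the mean of each group was taken off the log2 CPM, the 10 pairs of class II genes had Pearson correlations of 0.797 to 0.959 over the 16 cultures, with a median of 0.892. Those of class I had -0.346 to 0.568, with a median of 0.083. The class II genes share the library, and of the 5 only Ciita and Cd74 lie away from chromosome 17. Ciita, on chromosome 16, correlated with the other 4 at 0.797 to 0.826. Across the classes Tap1 stood nearest to class II, at 0.543 to 0.80, while H2-D1 was at -0.457 to -0.107. Of 13535 other genes with at least 1 CPM, the profile of class II was most like that of H2-DMb1 (r = 0.942), followed among others by Tiparp, Slc28a2 and D330045A20Rik (0.869 to 0.874). For class I the highest were Prkag2os2, Snx29, 4921514A10Rik, Gm49502 and Gm14851 (0.849 to 0.87). Their mean levels were 1.008, 2.915, 1.021, 1.498 and 63.66 CPM, in that order. Since the class I genes varied little together as a set, their mean profile does not stand for a variation that they share. Among further windows searched, those of Psmb9 and of H2-DMa, another class II loading gene, held no such pair of motifs on the gene's strand. Near the start of H2-DMb1 the pair was found, 86 bases upstream.
H2-DMb1: TGATGctaggctgattcactcagtgATTGG

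**Figure D5:**
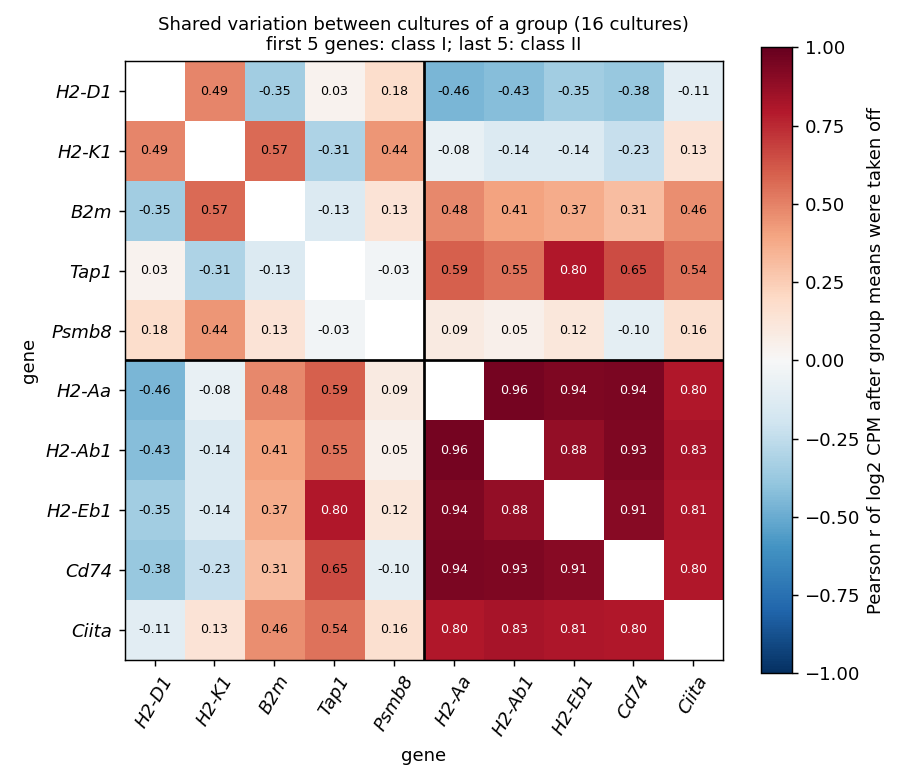
Pearson correlations of log2 CPM between the 10 genes (both axes) over 16 cultures after group means were taken off, from -1 (blue) to 1 (red). The lower right square of class II pairs is uniformly dark red (0.797 to 0.959), the upper left square of class I pairs holds both signs (-0.346 to 0.568), and Tap1 is the class I row with high values toward class II.

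For the lists that follow, the shares called over all genes were those given above, 13.5% higher and 13.8% lower in vehicle-treated MYO5BΔIEC, 13.1% and 13.7% in MYO5B(G519R) and 15.7% and 13.7% with Compound-1 against control. The medians over all genes were -0.01, -0.05 and -0.05. A list's calls often depended on 1 culture, and the counts with 1 culture left out are given in the same order of comparisons. Those counts stand without the share called over all genes in the same fit, and are not read as particular to a list. With Compound-1 cultures 3 and 4 left out, 6 of the 7 lists had no call against control, and the ligands for T and NK cells had 2.

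Among 11 further genes that make and load class I peptides, calls went both ways. In vehicle-treated MYO5BΔIEC 2 passed as higher, Tapbp (tapasin, which bridges the transporter to class I; log2 fold change 0.96) and Tap2 (0.94). As lower, 2 passed, Psme2, a proteasome activator subunit (-0.96), and Erap1, the peptide-trimming aminopeptidase (-0.90). In MYO5B(G519R) these 4 were called too, at 0.89 for Tapbp, 0.65 for Tap2, -0.84 for Psme2 and -0.77 for Erap1, and Tapbpl, a relative of tapasin, fell by 0.62. With Compound-1 against control Tapbp was at 1.27, Psmb9 at -0.93, Psme2 at -0.91, Erap1 at -0.84 and Tap2 at 0.64, all of them called. The medians of the list were -0.25, -0.31 and -0.29. With 1 culture left out the counts were 4 to 6, 2 to 7 and 2 to 7, the lowest in MYO5B(G519R) without its culture 2 or 3 and the highest in each comparison without control culture 1.

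The standard proteasome subunits that the immunoproteasome replaces were lower too. In vehicle-treated MYO5BΔIEC all 3 fell, Psmb5 by 0.84, Psmb7 by 0.82 and Psmb6 by 0.79 on the log2 scale. In MYO5B(G519R) Psmb5 fell by 0.57, and with Compound-1 Psmb6 fell by 0.64, while the other 2 did not pass in either. The call of Psmb5 in MYO5B(G519R) was lost with the length trend removed and without any of MYO5B(G519R) cultures 1 to 3 or control cultures 2 to 4, whereas DESeq2 called all 3 there. With Compound-1 no subunit passed in 6 of 8 fits with 1 culture left out, and DESeq2 called all 3. The immunoproteasome subunits Psmb8, Psmb9 and Psmb10 made up 11.5% to 15.9% of the summed FPKM of both kinds in control and 12.1% to 19.3% in the other groups, which overlap. Most of their sum was Psmb10, with a mean of 38.7 FPKM in control beside 4.01 for Psmb9 and 3.53 for Psmb8.

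Of 19 class I heavy chain relatives, 18 were tested in vehicle-treated MYO5BΔIEC. H2-T24 (0.95) and H2-Q4 (0.52) rose, and Hfe, which regulates iron uptake, fell by 0.91. In MYO5B(G519R) H2-Q4 rose (0.53) and H2-T3, the thymus leukaemia antigen of intestinal epithelium, fell by 0.63. With Compound-1 against control H2-T3 fell by 1.25 while H2-T23 (0.54) and H2-M2 (2.56, from a mean of 0.237 CPM over both groups) rose. The medians of the list were 0.11, -0.03 and -0.23. With 1 culture left out the counts were 1 to 5, 0 to 3 and 1 to 8. In vehicle-treated MYO5BΔIEC the 2 higher calls were lost with the replicate block, without a filter on low counts, and without vehicle-treated culture 2 or control culture 2, 3 or 4, which left 1 lower call.

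Of 14 genes that process antigen for or load class II, 8 were tested in each model. Ctsd, a lysosomal protease, and Lgmn, the asparagine endopeptidase of lysosomes, rose in vehicle-treated MYO5BΔIEC (0.94 and 0.68), in MYO5B(G519R) (0.67 and 0.52) and with Compound-1 against control (1.14 and 0.72). They serve all lysosomal breakdown. In the last comparison H2-DMa, a chain of the peptide exchanger, fell by 1.07, and Ifi30, a lysosomal thiol reductase, fell by 0.79. The medians were 0.01, -0.31 and 0.02, and the counts with 1 culture left out 2 to 4, 1 to 5 and 2 to 5.

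Among 17 regulators, Nlrc5, the coactivator of class I genes and a relative of Ciita, had 0.753, 0.366, 0.288 and 0.445 CPM in control and 1.14, 4.47, 2.30 and 1.59 in vehicle-treated MYO5BΔIEC. All 4 of the latter lay above all controls, at a log2 fold change of 2.36 ± 0.49 (edgeR, adjusted p = 0.00679). In MYO5B(G519R) it had 1.43, 0.533, 4.79 and 0.362 CPM and overlapped control (1.94, adjusted p = 0.0881), and with Compound-1 it was at 1.17 (adjusted p = 0.058). Rfx5, an X box factor, rose in vehicle-treated MYO5BΔIEC (0.62) and with Compound-1 (0.66). Nfyc, a subunit of NF-Y, fell by 0.62 and by 0.44 in the 2 models, and Creb1 fell by 0.48, 0.31 and 0.42 in vehicle-treated MYO5BΔIEC, MYO5B(G519R) and Compound-1 cultures. Irf2 (0.71) and Jak1 (0.49) rose with Compound-1 against control. Ifng, the gene of interferon gamma, had no read in any culture. The medians of the list were 0.15, 0.13 and 0.33. With 1 culture left out the counts were 1 to 8, 0 to 9 and 0 to 8, each highest without control culture 1.

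Of 24 interferon response genes, 4 of 22 tested rose and none fell in vehicle-treated MYO5BΔIEC: Ifit3 (2.08), Oasl2 (1.77), Irf7 (1.69) and Stat2 (0.97). In MYO5B(G519R) Irf7 (1.42) and Stat2 (0.91) rose and the chemokine gene Cxcl10 fell by 1.75. With Compound-1 against control Mx1 (1.88), Irf7 (1.39) and Stat2 (0.77) rose, and Irgm1 (-0.73) and Bst2 (-0.51) were lower. The medians were 0.96, 0.61 and 0.19. The count in vehicle-treated MYO5BΔIEC was 1 without vehicle-treated culture 2 or control culture 4, 2 without vehicle-treated culture 3 or control culture 3, 10 without control culture 1, 11 without vehicle-treated culture 4 and 8 by DESeq2. In the other comparisons it ran from 1 to 5 and from 2 to 7 with 1 culture left out. Of 14 ligands for T and NK cells, 11 were tested, and Cd80 (3.63), Icam1 (2.92) and Icosl (1.01) rose in vehicle-treated MYO5BΔIEC. The control cultures held only 3 to 15 reads of Cd80 and 7 to 21 of Icam1. Icam1 (1.67), Icosl (0.86) and Cd80 (2.12) rose in MYO5B(G519R). With Compound-1 against control Icam1 (3.42), Cd80 (2.69) and Icosl (0.91) rose and Raet1e, a ligand of the NK receptor NKG2D, fell by 1.34. The medians were 0.39, 0.03 and 0.17, and the counts with 1 culture left out 3 to 4, 1 to 4 and 2 to 5. Of these 7 lists edgeR and limma called 0 genes between Compound-1 and vehicle and 0 between the models. Unadjusted p were under 0.05 for 15 of 90 and for 7 of 89 genes tested, and DESeq2 called 1 and 0.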

How the data were processed

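Enteroid RNA from 16 cultures was sequenced from poly(A) libraries. Per the labels and methods, STAR 2.5 placed the paired-end reads on GRCm38/mm10 and HTSeq 0.6.1 counted them per gene; the deposited counts are not normalised. The authors also deposited FPKM, made from these counts and the gene length. Here edgeR 4.0.16 (R 4.3.3) was run on the counts of each pair of groups. Genes needed 10 counts in 2 cultures, libraries were scaled by TMM, and the quasi-likelihood test was adjusted by Benjamini-Hochberg over all genes tested, with a threshold of 0.05. CPM were scaled over all 16 cultures, and FPKM served for levels between genes. DESeq2 1.42.0, limma 3.58.1 and other settings were alternatives. The code was tested on simulated data. A limit on false calls was applied there to edgeR and limma but not to DESeq2, whose calls are given only as alternatives. Deposited columns were all mapped to labelled cultures.

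The 10 genes and 7 lists were chosen with earlier results of these data known. From each list, up to 4 called genes with the largest change and a mean of at least 1 CPM were named, plus H2-Ea-ps, Nlrc5 and Psmb9; Tapbpl, H2-M2, Bst2, Tap2 with Compound-1 and Cd80 in MYO5B(G519R) were added after their values were seen. The genes most like each class were the 5 with the highest correlation to its mean standardised profile, of which 1 is not reported here. Counting error is small beside the spread between cultures at these depths, except below about 30 counts. Promoters came from RefSeq and shared transcript stretches from GENCODE M21.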

Additional observations from a re-analysis of the deposited data

Results flagged for a closer look

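In 40 tests of 4 cultures each, 1 for each of the 10 genes in each group, 3 held a culture far from the rest by Dixon's criterion, and chance flags about 1 in 20. H2-K1 in control culture 1 was the lowest of its group, with a gap of 0.954 of the whole range, and B2m in the same culture was also the lowest, with a gap of 0.853. This is the control culture whose level did not fall with gene length. B2m in Compound-1 culture 1 was the highest of its group, with a gap of 0.929.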

How the results depend on the processing

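Of 920 log2 fold changes of single genes under alternatives, 858 kept direction and side of the threshold, 31 lost a call, 19 gained 1 and 12 changed sign, none of these 12 called. With 1 culture left out at a time, the number of the 10 genes called ran from 2 to 5 in vehicle-treated MYO5BΔIEC (5 without control culture 1, where Cd74 and Psmb8 joined), from 2 to 4 in MYO5B(G519R) and from 4 to 5 with Compound-1 against control, and it stayed at 0 in the other 2 comparisons. Between Compound-1 and vehicle DESeq2 and the fit without a filter each gave 1 call, Ciita. With Compound-1 cultures 3 and 4 left out, chosen after seeing the data, 0 of the 10 passed against control, with 2 treated cultures. Same-numbered cultures correlated over 0.1 in 10 of 24 pairs (-0.383 to 0.658), so the numbers were not taken as pairs. With the replicate block 8 genes passed with Compound-1 against control in place of 4, H2-Aa, H2-Ab1, Cd74 and Tap1 being added. The counts of genes called in this paragraph stand without the share called over all genes in the same fit. They are not read as particular to these 10 genes.

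Changes of sign were small. In MYO5B(G519R) against control H2-Eb1 was at 0.11 with the length trend removed and ran from -0.86 to 0.15 with 1 culture left out (above 0 without MYO5B(G519R) culture 2 or 4 or control culture 2), and Cd74 ran from -0.94 to 0.10 (above 0 without control culture 1). Between Compound-1 and vehicle H2-K1 ran from -0.16 to 0.019 (above 0 without vehicle-treated culture 1), and H2-D1 was at -0.018 without Compound-1 cultures 3 and 4, which also put H2-Eb1 against control at 0.14. Between the models, H2-D1 ran from -0.11 to 0.043 (above 0 without vehicle-treated culture 1 or 2), H2-K1 from -0.13 to 0.055 and Psmb8 from -0.26 to 0.038 (both above 0 without vehicle-treated culture 1). The cause was not tested. Depth limits genes with few reads, among them Ciita, Nlrc5 and H2-Aa, which were at 10, 9 and 6 counts in their lowest culture. Cd80 and Icam1 were at 3 and 7 counts in their lowest control culture.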
